A study of Mus musculus with 12 samples.

Results

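Gene expression in CD8+ T cells from peripheral lymph nodes (PLN) was compared between wild-type (WT) mice and mice of 2 genotypes that affect B cells. The members are the 4 arrays of total CD8+ T cells from PLN, of 12 arrays in the series, chosen by their tissue and cell type labels. An AID KO array was set against the WT array that its title names as its control, and a uMT array against a second WT array named in the same way, so that the comparison consists of 2 pairs with no array in common. All 4 samples are labelled as female C57BL/6 mice with no treatment, and no age is given. The cells were enriched with magnetic beads and, per the protocol, further isolated by flow cytometry, and Cy3-labelled RNA was hybridized to 1-colour Agilent arrays. Each genotype has 1 array except WT, and the labels do not say whether the samples were single animals or pools, so a difference within a pair is a difference between 2 arrays. The labels also do not say that the WT arrays are separate animals. The p-values set the mean difference of both pairs against a variance. It was estimated from how far the pairs depart from each other, drawn toward a value shared over features. They do not measure a spread between animals of a genotype.

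AID KO mice keep B cells, but these do not switch class or hypermutate their immunoglobulin genes. The uMT mutation disrupts membrane exons of the immunoglobulin mu chain, and uMT mice have no mature B cells. CD8+ T cells recognise peptides on class I major histocompatibility molecules, and on receptor stimulation they induce immediate early factors of the NR4A, EGR and AP-1 families within minutes, followed by feedback regulators such as the DUSP phosphatases, which switch MAP kinases off. Peripheral nodes drain the skin and deeper tissues, whereas mesenteric nodes (MLN) drain the gut.

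The genes described below fall into those with a difference of the same direction in both pairs and a group of early response genes with large differences in the AID KO pair. The promoters of 4 of them are printed here because they show the response elements searched for in each group. The sequences are RefSeq windows of 300 bases around the annotated start in mouse GRCm38.p6, written 5′ to 3′ on the strand of the gene. Capitals mark a full cyclic AMP response element (CRE, TGACGTCA), an AP-1 element (TGANTCA) or an E-box (CACGTG), searched on both strands. Utp14b (chr1:78658190-78658489, plus strand) and Guca2a (chr4:119637482-119637781, plus strand) were at least 2-fold lower in both pairs. Maff (start site 2 of 3, chr15:79347270-79347569, plus strand) and Dusp1 (chr17:26508423-26508722, minus strand) were at least 2-fold lower in the AID KO pair.
Utp14b: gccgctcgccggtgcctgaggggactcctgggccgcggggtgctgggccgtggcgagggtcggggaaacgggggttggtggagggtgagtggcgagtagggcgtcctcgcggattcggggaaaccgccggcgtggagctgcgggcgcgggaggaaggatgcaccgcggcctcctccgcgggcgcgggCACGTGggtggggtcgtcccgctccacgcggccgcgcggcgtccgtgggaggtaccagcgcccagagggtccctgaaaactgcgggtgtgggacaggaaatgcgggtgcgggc
Guca2a: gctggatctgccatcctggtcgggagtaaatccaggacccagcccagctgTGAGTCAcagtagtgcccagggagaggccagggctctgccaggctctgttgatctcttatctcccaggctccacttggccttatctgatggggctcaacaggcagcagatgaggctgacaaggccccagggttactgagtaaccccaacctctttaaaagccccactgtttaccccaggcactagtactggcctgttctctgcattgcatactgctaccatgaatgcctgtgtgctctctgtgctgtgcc
Maff: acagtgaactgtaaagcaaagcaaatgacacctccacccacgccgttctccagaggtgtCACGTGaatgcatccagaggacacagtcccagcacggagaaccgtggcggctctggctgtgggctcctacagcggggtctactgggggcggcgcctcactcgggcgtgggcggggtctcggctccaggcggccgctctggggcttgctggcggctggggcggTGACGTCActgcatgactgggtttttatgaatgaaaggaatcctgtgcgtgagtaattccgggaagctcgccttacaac
Dusp1: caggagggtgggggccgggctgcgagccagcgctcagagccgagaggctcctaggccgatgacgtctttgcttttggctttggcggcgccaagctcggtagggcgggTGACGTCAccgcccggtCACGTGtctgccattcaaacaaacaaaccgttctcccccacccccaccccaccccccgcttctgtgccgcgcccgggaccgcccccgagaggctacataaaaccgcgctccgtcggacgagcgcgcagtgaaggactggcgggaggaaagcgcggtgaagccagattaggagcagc
The Utp14b window holds an E-box, the Guca2a window an AP-1 element, and the Maff and Dusp1 windows a CRE and an E-box each. Of the 12 named genes at least 2-fold in the same direction in both pairs, 10 had a promoter in the table, and among these 0 held a CRE, 1 an AP-1 element and 1 an E-box. Of 22 early response genes at least 2-fold lower in the AID KO pair, 18 had a promoter, and 3 held a CRE, 1 an AP-1 element and 7 an E-box. Of the 42 other measured early response genes, 35 had a promoter, and 2 held a CRE, 3 an AP-1 element and 5 an E-box. Over all 32851 promoters of this length the shares were 1.79% for the CRE, 7.81% for the AP-1 element and 7.15% for the E-box. These shares are of single windows, whereas a gene was counted when any of its start sites matched. Genes with several start sites thus had more windows to match, and the units differ. A match describes these letters only.

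Levels are given as log2 of the processed intensity minus the 75th percentile of the same array, so that 0 is the 75th percentile, and differences are knockout minus WT on that scale. The 75th percentiles ranged from 431.5 to 736.5 intensity units, between 52.6% and 56.8% of spots were well above background, 0 spots were saturated, and the PLN arrays correlated with each other at 0.982 to 0.993 across features. After probes well above background on fewer than 2 of these arrays were removed, 24225 features were tested, 13251 of them with a gene symbol. The differences of the AID KO and uMT pairs had standard deviations over features of 0.40 and 0.39, and the difference between the WT arrays, which lie on separate slides scanned apart, had one of 0.51. On both slides the WT PLN array held place 1 and the knockout PLN array place 2, so that genotype and place on the slide cannot be told apart.

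The label of the cells was checked first. The CD8 coreceptor chains and CD3 were high and even. Cd8a stood at 5.25 in WT and 5.26 in AID KO, and at 4.93 in WT and 4.99 in uMT. Cd8b1 lay between 7.67 and 7.88 on the 4 arrays, and Cd3e between 6.16 and 6.47. Of 30 genes of CD8 identity and T cell receptor signalling, 27 were measured, with medians of 0.02 in both pairs and 0 genes past 2-fold in either. The genotypes were not checked from their targets here, and no probe could be named as Ighm.

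Few genes differed in the same direction in both pairs, and most of those were lower in the knockouts. In the AID KO pair 138 features were at least 2-fold higher (0.57% of those tested) and 296 at least 2-fold lower (1.22%). In the uMT pair 130 were higher (0.537%) and 486 lower (2.01%). A feature passed 2-fold upward in both pairs in 9 cases (0.0372%), downward in both in 28 (0.116%) and in opposite directions in 10 (0.0413%). The 9 features higher in both were 6.52% of the higher features of the AID KO pair and 6.92% of those of the uMT pair, and the 28 lower in both were 9.46% and 5.76% of the lower ones. Of these, 3 and 9 were named genes and the other 6 and 19 carried clone names or no symbol. Where a spot was not well above background it was raised to the lowest signal called well above background on that array, so such a fold is a lower limit. The counts depended on the scaling and on the control. With quantile normalization the uMT pair had 211 higher and 384 lower features, and in the series matrix it had 80 and 137, with 10 and 11 in both pairs; with normexp 0 and 4 passed in both. Against the WT array of the other slide, the AID KO array had 177 higher and 1744 lower features and the uMT array 712 and 103, so that the balance of the uMT array reversed.

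**Figure D1:**
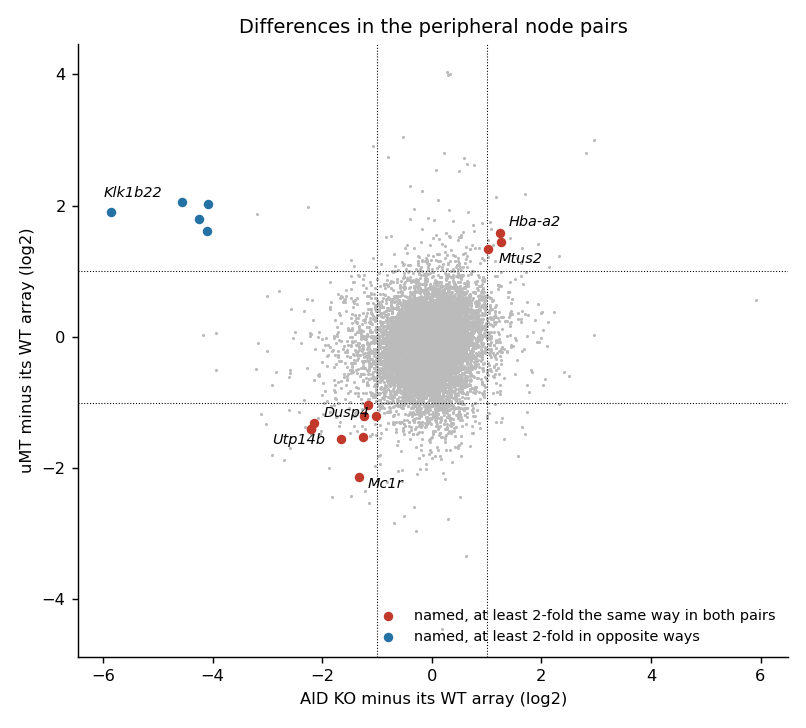
Difference of each feature in the AID KO pair (x axis, log2) against that in the uMT pair (y axis, log2), with dotted lines at 2-fold and measured values for dim spots. Red points are the 12 named genes at least 2-fold in the same direction in both pairs, blue points the 5 named genes at least 2-fold in opposite directions, and grey points all other features, including unnamed ones past 2-fold. Across 24221 features Pearson's r was 0.16.

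Across these 24221 features the differences of both pairs had a Pearson's r of 0.16 and a Spearman's rho of 0.18. Features on an array share its labelling and scan, and they are not independent replicates. The limma fit took AID KO and uMT together as samples of genotypes that affect B cells, so it tested neither genotype alone. In limma, with the pair as a block and 1 residual degree of freedom, 0 features passed in knockouts versus WT in either direction (0% of 24225; lowest adjusted p = 0.537), while 2075 had an unadjusted p under 0.05. With normexp background correction 7 features passed, 1 higher and 6 lower. The named ones were Dusp4 at -1.39 ± 0.18 (SE; adjusted p = 0.00474 in limma), Guca2a at -1.14 ± 0.17 (adjusted p = 0.015), Hspa1b at -1.23 ± 0.19 (adjusted p = 0.0157) and Hspa1a at -1.47 ± 0.24 (adjusted p = 0.0308). Below, values after ± are standard errors of the mean difference over both pairs in the fit on processed intensities, in which none of the genes passed. All standard errors here are limma's moderated ones, drawn toward a variance shared over features, so they do not give the spread of the pairs. With normexp the mean differences of the shared genes were smaller, at -0.59 for Adig, -0.66 for Mc1r, -0.71 for Zbtb10, -0.78 for Fam83e and for Cyp2d26, -0.84 for Ctsk and -0.86 for Utp14b, and 0.89 for Mtus2, 0.87 for Hba-a1 and 0.92 for Hba-a2.

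Among signalling genes, Dusp4 was lower in both knockouts. It encodes a nuclear phosphatase that inactivates MAP kinases. Its level was -0.69 in WT and -2.83 in AID KO, a 4.41-fold difference, and -0.61 in WT and -1.92 in uMT, a 2.48-fold difference. The WT arrays lay within 0.07 of each other and both knockout arrays lay below them, with a mean difference of -1.73 ± 0.25. The mesenteric pairs, whose arrays took no part in the choice of genes, gave -2.84 for AID KO and -2.04 for uMT.

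Guca2a encodes guanylin, a peptide that activates guanylate cyclase C in the gut. It stood at -1.92 in WT and -4.12 in AID KO (4.60-fold lower), and at -1.67 in WT and -3.07 in uMT (2.64-fold lower). Mc1r, the melanocortin receptor known from pigment cells, stood at -3.49 in WT and -4.82 in AID KO, and at -3.02 in WT and -5.16 in uMT. Here the uMT difference, 4.4-fold, was the larger, against 2.52-fold for AID KO. For both genes the knockout arrays lay below both WT arrays, and the mean differences were -1.80 ± 0.25 and -1.73 ± 0.25.

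Utp14b is a retrogene of a component of the small ribosomal subunit processome. Its levels were -1.93 in WT and -3.59 in AID KO, and -1.97 in WT and -3.52 in uMT. The WT arrays differed by -0.04, while both knockouts were lower by 3.16-fold and 2.92-fold, a mean difference of -1.60 ± 0.13. Fam83e, of the FAM83 family, stood at -2.79 in WT and -5.00 in AID KO, where the spot was not well above background and the fold was at least 4.29. In the uMT pair it stood at -2.59 in WT and -3.99 in the knockout (2.66-fold).

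Among the other genes, Zbtb10, a zinc finger transcription factor, stood at -1.65 in WT and -2.81 in AID KO, and at -1.85 in WT and -2.87 in uMT. Ctsk, the lysosomal protease cathepsin K, was at -1.64 and -2.88 in the AID KO pair and at -1.46 and -2.65 in the uMT pair, WT first. Adig, a gene of fat cell differentiation, was at -3.53 and -4.78 in the AID KO pair and at -2.77 and -4.28 in the uMT pair. For these 3 genes the knockout arrays again lay below both WT arrays, with mean differences of -1.09 ± 0.13, -1.22 ± 0.12 and -1.38 ± 0.14. The cytochrome P450 gene Cyp2d26 was at -2.13 and -3.15 in the AID KO pair and -1.64 and -2.84 in the uMT pair, but its second probe gave differences of 0.12 and -0.39, so its probes disagree.

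The named genes higher in both pairs were Mtus2 and the alpha globins Hba-a1 and Hba-a2. Mtus2 encodes a protein that binds microtubules. It stood at -2.14 in WT and -1.10 in AID KO, and at -1.68 in WT and -0.35 in uMT, with both knockouts above both WT arrays and a mean difference of 1.18 ± 0.15. Hba-a1 stood at -3.69 in WT and -2.42 in AID KO, and at -2.16 in WT and -0.70 in uMT. Hba-a2, a near-identical copy whose probes may read the same transcripts, stood at -3.88, -2.64, -2.38 and -0.80 in that order. For the globins the groups overlapped, since the WT array of the uMT pair lay above the AID KO array, and the WT arrays differed by 1.53 and 1.51.

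The globins are markers of red blood cells, and 4 of the 16 erythroid and platelet markers were measured. These were Hba-a1 and Hba-a2 themselves, Itga2b and Car2. Their summed level, in multiples of the 75th percentile, was 0.582 and 0.793 on the WT arrays, 0.965 in AID KO and 1.68 in uMT. Since the sum includes both globins, it is not separate from the globin result. Hbb-b1, Hbb-b2, Alas2 and Slc4a1 were well above background on 0 of the 4 arrays and Hbb-bt on 1. The part of such cells in the globin result was not tested. In bulk samples such as these, fewer cells of a type and less RNA per cell cannot be told apart. In the mesenteric pairs the globins were lower in AID KO (-1.22 and -1.24) and higher in uMT (1.62 for both).

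**Figure D2:**
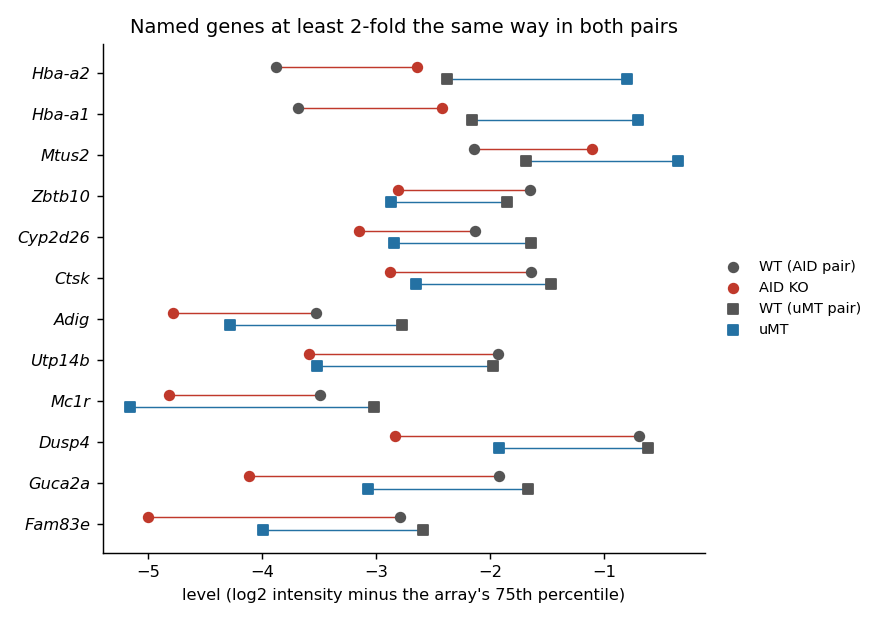
Level of each of the 12 named genes on the 4 arrays (x axis, log2 intensity minus the 75th percentile of the array). Grey symbols are WT, red AID KO and blue uMT; circles and a red line join the AID KO pair, squares and a blue line the uMT pair. The 9 lower genes have both knockout symbols left of both WT symbols, while for Hba-a1 and Hba-a2 the AID KO circle lies left of the WT square of the uMT pair.

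At the edge of the 2-fold limit, Mtus2 (1.03 in the AID KO pair) and Cyp2d26 (-1.02) lay just inside, and Klrk1 (0.99 in the uMT pair) and Adra2a (-0.99 in the uMT pair) just outside. Klrk1 encodes the activating receptor NKG2D, which effector and memory CD8+ T cells carry. It stood at -1.78 in WT and -0.06 in AID KO, and at -2.13 in WT and -1.14 in uMT, with both knockouts above both WT arrays. At 1.5-fold, 826 features were higher (3.41%) and 1105 lower (4.56%) in the AID KO pair, and 619 higher (2.56%) and 1854 lower (7.65%) in the uMT pair. In both pairs 97 were higher (0.4%) and 235 lower (0.97%), of which 34 and 61 were named genes. Clec2d, a lectin-like ligand of an inhibitory NK receptor, was among the higher ones, at 2.64 in WT and 3.55 in AID KO, and at 1.74 in WT and 2.95 in uMT. Ddit4, an inhibitor of mTORC1 signalling, stood at 3.99 in WT and 5.40 in AID KO, and at 3.80 in WT and 4.48 in uMT. Clec2d and Ddit4 were chosen after their values were seen.

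The shared genes were followed on the mesenteric arrays, which were not used to choose them. These lie on the same slides, and the labels do not say whether they come from other animals. The sign was the same in both MLN pairs for 7 of the 9 features that were 2-fold higher in both PLN pairs (77.8%) and for 24 of the 28 that were 2-fold lower (85.7%). Among all features with 1 sign in both PLN pairs, the shares were 47.4% of the 7028 higher ones and 48.9% of the 6612 lower ones. A 2-fold difference in the same direction was seen in both MLN pairs for 4 of the 9 (44.4%) and 15 of the 28 (53.6%), against 0.281% and 0.178% of all features that were 2-fold higher and lower in both MLN pairs. All 9 named lower genes kept their sign in both MLN pairs, as did Mtus2, and Hba-a1 and Hba-a2 did not. In the mesenteric AID KO and uMT pairs Utp14b gave -1.78 and -1.65, and Mtus2 gave 1.15 and 1.70. Of the named genes past 1.5-fold in both PLN pairs, 26 of the 34 higher and 48 of the 61 lower had the same sign in both MLN pairs. On the slides, knockout MLN arrays also held a fixed place, 4, and WT MLN arrays place 3.

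**Figure D3:**
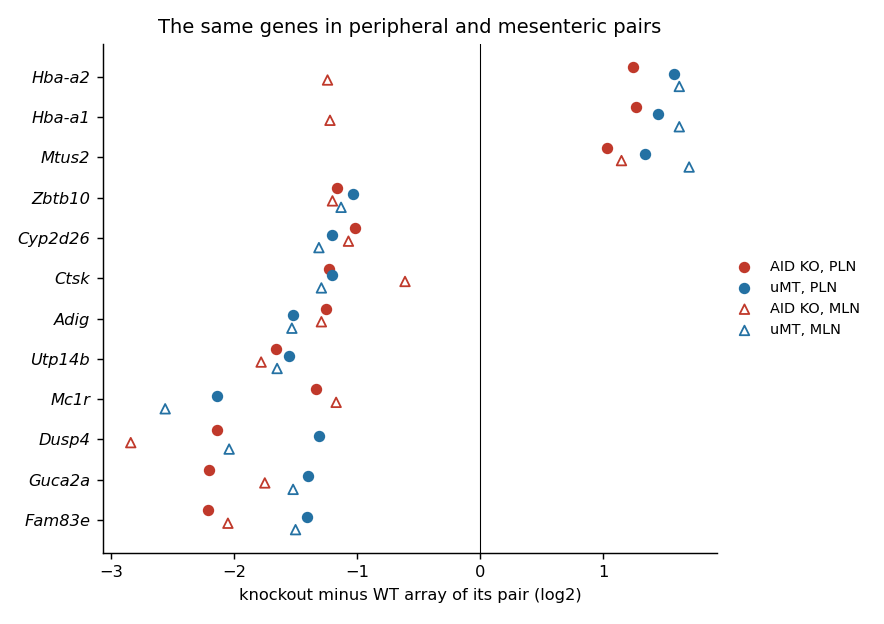
Differences of the 12 named genes (x axis, knockout minus the WT array of its pair, log2) in the 2 peripheral pairs (filled circles) and the 2 mesenteric pairs (open triangles), red for AID KO and blue for uMT. The lower genes lie left of 0 in all 4 pairs, and Hba-a1 and Hba-a2 lie left of 0 in AID KO MLN only.

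The named genes past 2-fold in opposite directions were 5 tissue kallikreins of the Klk1b group, secreted serine proteases known mainly from salivary gland. Klk1b22 stood at 0.62 in WT and -5.24 in AID KO, at least 45.8-fold lower, and at 0.49 in WT and 2.40 in uMT, 3.76-fold higher. Klk1b3 stood at -0.61 and -4.86, at least 19.1-fold lower, and at -0.62 and 1.19, 3.49-fold higher, WT first. Klk1b24, Klk1b27 and Klk1b8 were at least 7.42-fold, 4.86-fold and 8.01-fold lower in AID KO and 4.05-fold, 4.13-fold and 3.08-fold higher in uMT. These limits hold for processed intensities only. With normexp the AID KO differences were -3.69 for Klk1b22, -2.35 for Klk1b3, -1.60 for Klk1b24, -1.10 for Klk1b27 and -1.64 for Klk1b8, and the uMT differences lay between 1.16 and 1.74. On every one of these probes the WT arrays lay between the AID KO array and the uMT array. Of 20 kallikreins 10 were measured. In the AID KO pair 5 were called lower (1.22% of all features) and 0 higher, and in the uMT pair 0 lower and 6 higher (0.537%), with medians of -3.64 and 1.71. The medians were -0.87 and 1.08 with normexp, and -0.09 and 0.13 with a filter on all PLN arrays. The genes of this group are close copies, and a probe may read several of them.

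A group of early response genes was lower in the AID KO pair, while most of its members lay near WT in the uMT pair. Of 32 NR4A, EGR and AP-1 immediate early factors 31 were measured. In the AID KO pair 12 were at least 2-fold lower (1.22% of all features) and 0 higher (0.57%), with a median of -0.82. In the uMT pair 0 passed in either direction (2.01% lower and 0.537% higher over all features), with a median of 0.02. Over all features the medians were 0.009 and 0.002. Nr4a1, an orphan nuclear receptor induced by receptor signals, stood at 4.73 in WT and 3.03 in AID KO, and at 4.67 in WT and 4.31 in uMT. Its relative Nr4a2 stood at 2.59 and 0.19 in the AID KO pair, and at 2.82 and 2.72 in the uMT pair. Both WT arrays and the uMT array were thus high, and the AID KO array was low.

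The AP-1 subunits showed a similar range. Fos stood at 4.85 in WT and 3.23 in AID KO, but at 4.82 in WT and 5.36 in uMT. Junb stood at 7.34 and 6.00 in the AID KO pair and at 7.59 and 7.44 in the uMT pair. Some members were lower in both pairs. Maff, a small partner of AP-1 related proteins, stood at -0.08 in WT and -2.06 in AID KO, and at -0.23 in WT and -0.92 in uMT. Crem, a regulator acting on cyclic AMP response elements, gave differences of -1.17 and -0.97, and Fosl2 of -1.34 and -0.49. For Maff, Crem and Fosl2 both knockout arrays lay below both WT arrays, as for 9 of the 31 members (11.6% of all features). The EGR factors were among the 7 of the 31 members that were higher in the AID KO pair. Egr1, Egr2 and Egr3 gave 0.10, 0.28 and 0.15 there, and 0.32, 0.41 and 0.07 in the uMT pair.

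Of 33 DUSP phosphatases and feedback regulators, all measured, 10 were at least 2-fold lower in the AID KO pair (1.22% of all features) and 1, Dusp4, in the uMT pair (2.01%), with medians of -0.42 and 0.08. Dusp5, a nuclear phosphatase of ERK, stood at -1.56 in WT and -4.08 in AID KO, and at -2.11 in WT and -2.13 in uMT. Dusp1 stood at 4.64 and 2.81 in the AID KO pair, and at 4.58 and 5.12 in the uMT pair. Tnfaip3, the A20 inhibitor of NF-kB, stood at 5.84 and 3.71, and at 5.93 and 5.73. Rgs1, which limits chemokine receptor signals, stood at 2.22 and 0.02, and at 2.29 and 2.34. In each of these 4 genes the AID KO array alone was low; the difference between the pairs was not tested, since each rests on 1 knockout array. In the limma fit over both pairs on processed intensities, 0 members of either list passed.

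Both lists were chosen with earlier results of these data known, in which early factors were lower in AID KO, so the counts carry no independent support for that direction. On the mesenteric arrays, 22 of the 22 early genes that were 2-fold lower in AID KO PLN were lower in AID KO MLN and 16 of them 2-fold lower. Of all 296 features 2-fold lower in AID KO PLN, 93.6% were lower and 32.4% 2-fold lower in AID KO MLN. In the other genotype, 12 of the 22 were lower in uMT MLN and 13 in the peripheral uMT pair. The list medians in MLN were -0.66 and -0.21 for the immediate early factors and -0.54 and -0.09 for the feedback regulators, AID KO first.

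**Figure D4:**
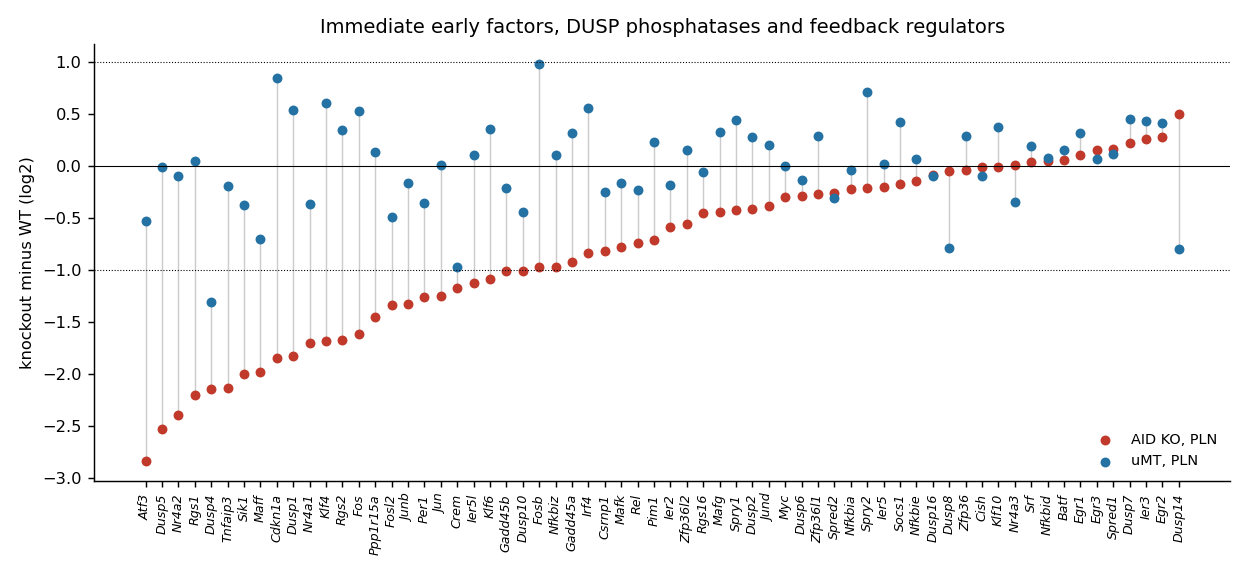
Differences of the measured immediate early factors, DUSP phosphatases and feedback regulators (x axis, ordered by the AID KO pair) in the AID KO pair (red) and the uMT pair (blue), as knockout minus WT on the log2 scale, with dotted lines at 2-fold and measured values for dim spots (Atf3 and Cdkn1a are limits in AID KO). Of these genes 22 are called 2-fold lower in AID KO, and Dusp4 is the 1 called in both pairs.

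Heat shock chaperones help proteins fold, and the list leaned lower in both pairs. Of 20, all measured, 10 were lower in both pairs and 0 higher in both (27.3% and 29% of all features), with medians of -0.22 and -0.13. The inducible HSP70 genes Hspa1a and Hspa1b, which are near-identical copies, were the 2 called 2-fold lower in the uMT pair (2.01% of all features). In the AID KO pair 1 other member was called 2-fold lower (1.22%), and the largest difference there was -1.18. Hspa1a stood at 2.12 in WT and 1.30 in AID KO, and at 2.21 in WT and -0.01 in uMT. Hspa1b stood at 1.90 and 0.95 in the AID KO pair, and at 1.94 and 0.40 in the uMT pair. In the MLN pairs Hspa1a gave 0.16 and -1.14 and Hspa1b 0.52 and -0.23, so the AID KO value changed sign.

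Of 46 measured type I interferon response genes, 0 passed 2-fold in either peripheral pair, and the medians were -0.20 in AID KO and 0.01 in uMT. In AID KO 9 of the 46 were higher, and in uMT 24. In both pairs 17 were lower and 4 higher (27.3% and 29% of all features), and both knockout arrays lay below both WT arrays for 9 and above them for 0 (11.6% and 13.2%). Oas3, an RNA sensor of the antiviral response, gave differences of -0.65 and -0.53, and Ifit1, which binds viral RNA, of -0.51 and -0.05. In the MLN pairs the list medians were 0.75 and 1.16. The interaction of knockout with site over 8 arrays, with 2 residual degrees of freedom, passed for 0 features in limma (0% of 24225; 779 with an unadjusted p under 0.05; lowest adjusted p = 0.719). The 4 named genes with the lowest p were Ifi44, Ifit1, Oasl1 and Antxrl, with differences of MLN minus PLN of 3.37 ± 0.28, 2.89 ± 0.30, 2.13 ± 0.23 and 2.44 ± 0.27 (SE). With normexp 21 of the 24225 features passed, all 21 with a higher knockout effect in MLN. Of them 13 were among the 46 measured genes of the type I interferon list. That list was chosen with earlier results of these data known, so the count carries no independent support. The interferon-gamma and antigen presentation list had medians of 0.02 and -0.05 in PLN, where 31 genes were measured, and of 0.33 and 0.40 in MLN. In the AID KO PLN pair 1 of its genes was called 2-fold lower (1.22% of all features) and 0 higher (0.57%). In the uMT PLN pair 0 were called (2.01% lower and 0.537% higher over all features).

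Among genes of T cell state, the medians of the naive and quiescence list (32 measured) were -0.04 and 0.06, of the effector and memory list (42) 0.01 and 0.09, and of activation and inhibitory receptors (23) 0.04 and 0.05. In the AID KO pair 1 receptor was 2-fold higher and 1 lower (0.57% and 1.22% of all features). The lowest measured difference there was -3.01, in a receptor left uncalled by the rule for spots not well above background. Pdcd1, the inhibitory receptor PD-1, stood at -2.99 in WT and -1.76 in AID KO, and at -3.39 in WT and -3.01 in uMT. Ctla4, another inhibitory receptor, stood at -1.33 and -2.88 in the AID KO pair, and at -1.27 and -0.55 in the uMT pair. Of the effector and memory list Klrk1 was 2-fold higher in AID KO and 3 genes were 2-fold lower (0.57% and 1.22% of all features). The lower ones were the cytokine gene Ifng (-1.73), the death ligand gene Fasl (-1.73) and the transcription factor gene Bhlhe40 (-1.65). Their uMT differences were 0.01, 0.04 and 0.21. These 3 and Ctla4 were chosen after their values were seen. Cx3cr1, a chemokine receptor of effector cells, gave 0.56 and 0.63, and Anxa2, an annexin, 0.47 and 0.53, with both knockouts above both WT arrays for each. Of 30 measured chemokine, homing and gut residency receptors 17 were higher in both pairs and 6 lower in both (29% and 27.3% of all features), with medians of 0.16 and 0.12. Dhrs3, a retinal reductase, gave 0.72 and 0.96 in PLN. S1pr5, a sphingosine receptor for exit from tissue, gave 0.49 and 1.52, and Ccr6 gave 0.47 and 1.03. The integrin gene Itga1, named after its values were seen, was 2-fold lower in uMT (-1.26) and gave 0.55 in AID KO.

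Ly6a, which encodes Sca-1, stood at 1.92 in WT and 2.41 in AID KO, and at 1.64 in WT and 2.20 in uMT. Both knockouts lay above both WT arrays, with a mean difference of 0.52 ± 0.13 (adjusted p = 0.537 in limma), below 2-fold in each pair. In MLN its differences were 1.26 and 1.74. Of 11 measured genes of the Ly6 family 5 were higher in both PLN pairs and 3 lower in both (29% and 27.3% of all features), with medians of 0.13 and -0.06. Ly6k gave 0.53 and 0.66.

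For proliferation, 26 of 41 measured genes were lower in both pairs and 5 higher in both (27.3% and 29% of all features), with medians of -0.14 and -0.10, and 0 were past 2-fold. Rrm2, a ribonucleotide reductase subunit, gave -0.30 and -0.57, and Bub1, a mitotic checkpoint kinase, -0.82 and -0.42. Of 47 ribosomal protein genes, 42 were higher in the AID KO pair and 8 in the uMT pair, with medians of 0.10 and -0.12, but both medians were 0.02 with quantile normalization and 0.01 in the series matrix, and against the WT array of the other slide they were -0.48 and 0.39. The WT arrays differed by a median of 0.57 in this list, more than either pair. The remaining programs had medians of -0.06 and -0.01 for cytokine receptors (33 measured), 0.02 and 0.04 for glycolysis and hypoxia (26), and -0.03 and -0.04 for sterol and fatty acid synthesis (29).

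**Figure D5:**
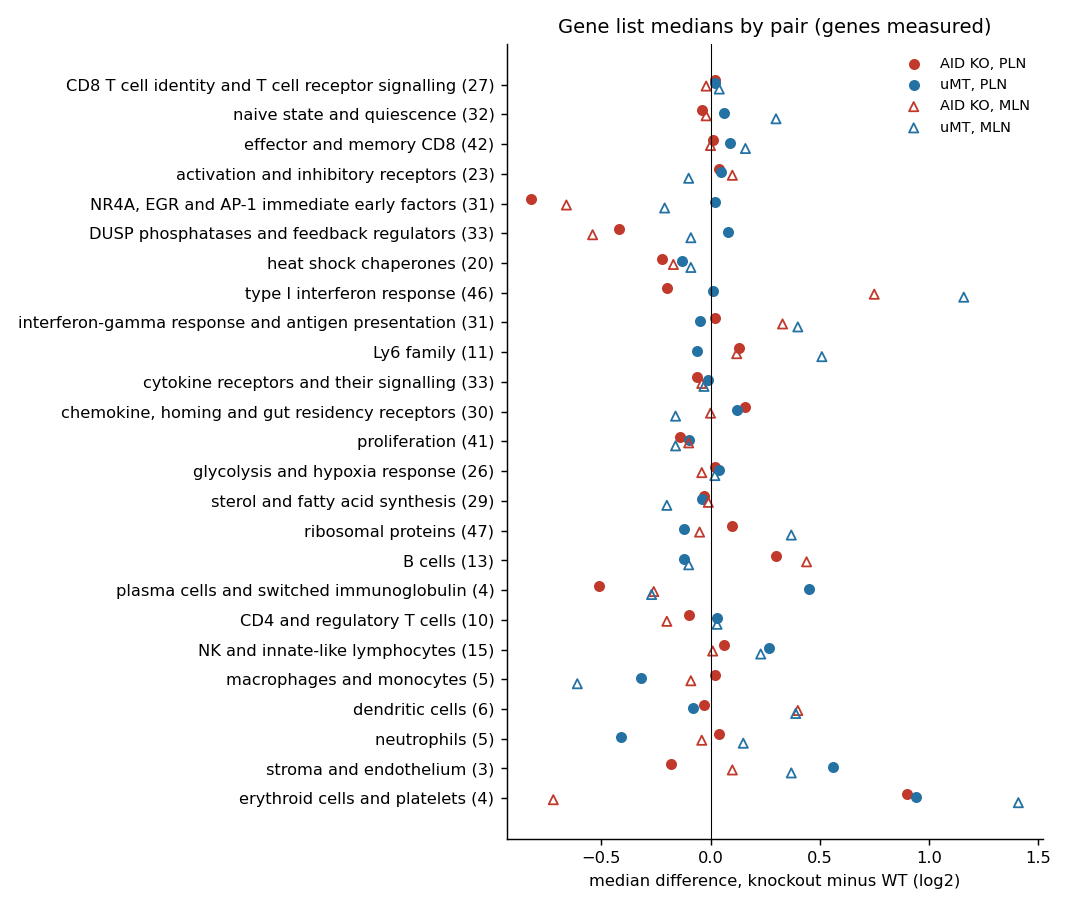
Median difference over the measured genes of each list (x axis, log2; number measured in parentheses) in the 2 peripheral pairs (filled circles) and 2 mesenteric pairs (open triangles), red for AID KO and blue for uMT; the kallikrein list, at -3.64 and 1.71 in PLN, is left out for scale. The immediate early factors lie at -0.82 for AID KO and 0.02 for uMT in PLN, and type I interferon genes lie right of 0 in MLN only, apart from 0.01 in uMT PLN.

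Markers of other cell types were measured in part. Of 25 B cell markers 13 were measured, with medians of 0.30 in AID KO and -0.12 in uMT. In either pair 0 were called 2-fold (over all features 1.22% lower in AID KO and 2.01% lower in uMT). The lowest measured difference in uMT was -1.68, in a marker left uncalled by the rule for spots not well above background. Ms4a1 and Ebf1 were well above background on 0 of the 4 arrays and Cd79a on 1. The summed B cell level was 17.1 and 18.8 on the WT arrays, 18.3 in AID KO and 20.6 in uMT, and Cd79b, a chain of the B cell receptor, stood between 1.93 and 2.73 on the 4 arrays. Sums for NK and innate-like lymphocytes were 41.4 and 40.2 in WT, 31.4 in AID KO and 46.8 in uMT over 15 of 26 markers, and Ncr1 was well above background on 0 arrays. Of these 15 markers, 8 were higher in AID KO and 12 in uMT, with medians of 0.06 and 0.27. In AID KO 3 of them were called 2-fold lower (1.22% of all features). Macrophage and monocyte sums were 3 and 3.72 in WT, 1.86 in AID KO and 2.97 in uMT over 5 of 16 markers. Neutrophil sums were 93.2 and 136 in WT, 95.8 in AID KO and 118 in uMT over 5 of 14, and S100a8 was well above background on 0 arrays. Dendritic cell sums were 193 and 278 in WT, 164 in AID KO and 276 in uMT over 6 of 13; Siglech, a receptor of plasmacytoid dendritic cells, stood at 5.62 and 6.74 in WT, 5.39 in AID KO and 6.61 in uMT. Plasma cell markers (4 of 14 measured) summed to 13.4 and 11.2 in WT, 9.22 in AID KO and 11 in uMT, CD4 and regulatory T cell markers (10 of 11) to 16.7 and 18.9, 15.8 and 20.3, and stroma and endothelium (3 of 16) to 1.05 and 0.913, 0.948 and 0.819. The plasma cell markers measured were Xbp1, Derl3, Irf4 and Prdm1, while Jchain, Mzb1 and Tnfrsf17 were well above background on 0 arrays. Irf4 is also on the immediate early list and Prdm1 on the effector and memory list. Of the dendritic cell markers, Ccr7 is also on the naive list and Bst2 on the type I interferon list. Such sums need not follow the cell types they are named for.

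Some differences in a single pair were larger than those of the 12 shared genes. The following genes were chosen after their values were seen. Pianp, a membrane protein of neurons, stood at -4.54 in WT and 1.39 in AID KO, a 60.8-fold difference, and at -5.26 in WT and -4.70 in uMT; the AID KO MLN pair gave 5.74. Ppfibp1, a liprin, gave 2.50 in the peripheral and 3 in the mesenteric AID KO pair, and -0.59 and -0.42 in the uMT pairs. These were seen at both sites, but others were not. Atp13a3, a polyamine transporter, stood at 0.14 in WT and -3.80 in AID KO, and at 0.19 in WT and -0.31 in uMT, and its MLN differences were -0.25 and -0.08. Loxhd1 stood at -0.94 on the WT array of the AID KO pair and between -4.89 and -4.75 on the other PLN arrays, so that its difference of -3.94 rests on a single WT array. In the uMT pair Anp32a, a nuclear phosphoprotein, stood at 4.01 in WT and 1.57 in uMT, while uMT MLN gave -0.12. Trnp1, a nuclear protein of neural progenitors, stood at 0.39 in WT and 2.15 in uMT, and gave 1.83 in uMT MLN. Adam6b, which lies within the immunoglobulin heavy chain locus, stood at -2.61 in WT and -4.68 in uMT, at -2.85 and -2.63 in the AID KO pair, and gave -3.17 in uMT MLN.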

How the data were processed

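Per the file headers, the deposited scanner files give each spot's intensity, background-subtracted and unscaled between arrays, as extracted by Agilent software (Feature Extraction, version 11.0.1.1 per the submitters' processing notes). They further hold, as other deposited values, flags of 0 or 1 for spots well above background or outlying. The authors' deposited series matrix holds log2 values of unstated centring and served as an alternative only. Log2 intensities were shifted by each array's 75th percentile over non-control probes. Outlier spots (83 to 173 per PLN array) were removed, and a gene was read from its brightest kept probe. Of 56605 probes, 32994 were named from the printed accession with RefSeq's GRCm38.p6 genes, and 0 had several symbols.

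Pairs follow the titles, and each pair shares a slide; MLN pairs were formed by slide. The test was limma 3.58.1 (R 4.3.3), two-sided, Benjamini-Hochberg adjusted over all features, threshold 0.05. For 4 features an outlier spot left a single pair. Normexp (offset 50) was run on median signals; the planned mean signals were not used here. Sums of markers are of linear levels. The code was tested on simulated data, and the number of arrays limits the precision.

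Named genes are those at least 2-fold in both pairs (clone and predicted names left out), up to 5 opposite ones, up to 4 members per list with 1 sign in both pairs, 4 of the site interaction, and Ly6a, Cd8a, Cd8b1, Cd3e and Ighm; some genes under this rule are not reported here. Others were chosen after their values were seen. Members and the 26 lists were chosen with earlier results of these data known.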

Additional observations from a re-analysis of the deposited data

Results flagged for a closer look

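The 5 Klk1b kallikreins moved in opposite directions in the 2 genotypes, at least 2-fold in every pair of both node sites; the difference between genotypes was not tested. Measured differences from WT, with AID KO before uMT and the peripheral before the mesenteric pair in each, were -5.86, -4.68, 1.91 and 1.47 for Klk1b22. In that order they were -4.09, -3.44, 2.02 and 1.63 for Klk1b24, and -4.56, -3.70, 2.05 and 1.57 for Klk1b27. Klk1b3 gave -4.25, -2.77, 1.80 and 1.44, and Klk1b8 gave -4.11, -2.66, 1.62 and 1.40. The AID KO PLN spots were not well above background, so these measured values are not bounds. With 1 array a genotype and site, no group was large enough for a search for outlying samples.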

How the results depend on the processing

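In knockouts versus WT in PLN, 0 features passed higher and 0 lower without the replicate block of the pair, with quantile normalization, with either other filter, with the mean of probes, in the series matrix, in the fit over 8 arrays, over the 4 pairs of both sites (added after seeing the data) and, unblocked, with any 1 PLN array left out (0 to 0). With normexp 1 feature was higher and 6 were lower. The site interaction passed for 0 features under these filters and scalings, and for 21 with normexp. For this interaction an array was left out only together with the other array of its pair. That left a single pair at 1 site, so no count is given for it. Counts of 2-fold differences, as higher and lower, were 138 and 296 (AID KO), 130 and 486 (uMT), and 9 and 28 (both). With normexp they were 31 and 103, 32 and 98, and 0 and 4. At 1.5-fold they were 826 and 1105, 619 and 1854, and 97 and 235, and at 3-fold 24 and 61, 27 and 46, and 0 and 2. In the series matrix they were 76 and 199, 80 and 137, and 10 and 11. The uMT counts were 211 and 384 with quantile normalization, 75 and 343 with a filter on all PLN arrays, and 284 and 666 without a filter. With no floor, 451 were lower in AID KO and 20 and 55 passed in both. Against the mean of both WT arrays the counts were 126 and 526, 229 and 109, and 14 and 30. Against the WT array of the other slide they were 177 and 1744, 712 and 103, and 7 and 17, so the split of uMT calls turned with the control array. All 12 named genes kept their sign in knockouts versus WT in every setting that gave a value (from -2.18 to -1.27 for Dusp4, -1.97 to -0.66 for Mc1r, -2.31 to -0.78 for Fam83e, -1.76 to -0.59 for Adig and 0.50 to 2.22 for Hba-a1). List medians at least 0.1 from 0 changed sign in 29 cases, among them proliferation in AID KO (0.14 against the other WT array), ribosomal proteins in AID KO (-0.48) and uMT (0.39) against it and in uMT with quantile normalization (0.02), erythroid markers (-0.26 in AID KO against it, -0.21 in uMT with no filter) and B cells in uMT (0.01 with quantile). Leaving out an array was not run for the counts of 2-fold differences, which need both arrays of a pair. The causes were not tested.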
